A study of Homo sapiens with 8 samples.

Results

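YAP1, WWTR1 (which encodes TAZ), TEAD1 to TEAD4, VGLL3, VGLL4, LATS1 and LATS2 belong to the downstream part of the Hippo pathway. Their messenger RNA was followed gene by gene in LX-2 cells. The 10 genes were taken by symbol from the 16796 genes of the count files. The rule itself uses symbols only, but the set was chosen with earlier results of these data known. Its shares beside those of all genes are therefore descriptive. All 10 were found and all passed the low-count filter. LX-2 is an established human line of hepatic stellate cells and here a single cell line, so donors are not represented. Cells received the vehicle DMSO (control) or OSMI-1 at 50 µM (OGTi), a small-molecule inhibitor of O-GlcNAc transferase, for 24 h, in 4 biological replicates each. Polyadenylated RNA was sequenced with a strand-specific protocol, and libraries held 24166756 to 28201215 counts.

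The cell label was read against marker genes. Of 12 stellate cell and myofibroblast markers, 9 had at least 10 counts in every library, COL1A1 and PDGFRB among them, while DES, LRAT and LUM had 0 to 6 counts. Their summed level was 8821 to 10117 CPM (counts scaled to a common library total) in control and 6963 to 8156 CPM in OGTi libraries. The markers of hepatocytes summed to 0.703 to 2.93 CPM over all libraries, and those of endothelial cells to 0.679 to 3.44 CPM. Cholangiocyte markers, mostly SOX9, summed to 25.8 to 41.8 CPM in control and 37.8 to 50.8 CPM in OGTi libraries. Leukocyte markers summed to 93.5 to 148 CPM in control and 219 to 372 CPM in OGTi libraries, nearly all from CD68, a lysosomal protein gene that is also expressed outside macrophages, while PTPRC, the defining leukocyte marker, had 0 to 10 counts. The part of this shift in the results below was not tested. In these bulk samples, fewer cells of a type and less RNA per cell cannot be told apart.

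In the Hippo pathway, the kinases MST1 and MST2 with the scaffold SAV1 activate LATS1 and LATS2, which phosphorylate the coactivators YAP and TAZ. Phosphorylated YAP and TAZ are held in the cytoplasm by 14-3-3 proteins or degraded. The unphosphorylated forms enter the nucleus and bind the DNA-binding TEAD factors, which have little activity alone. VGLL proteins bind TEADs in place of YAP and TAZ, and VGLL4 acts as a competitor of YAP. In liver, YAP activity accompanies the turn of stellate cells into matrix-producing myofibroblasts. LATS2 and AMOTL2 are known targets of YAP and TEAD, which makes them part of a feedback loop.

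The start regions of the coactivator genes are shown because YAP1 and WWTR1 moved in opposite directions under OGTi. Sequences are from RefSeq on GRCh38.p14, in which 8 of the 10 genes matched, with 15 windows of 300 bases. TEAD1 and TEAD4 were not matched. The 250 bases before the start site are given 5′ to 3′ on the strand of each gene, with the TEAD core in capitals. The YAP1 sequence lies at chr11:102110197-102110446 on the plus strand, and the WWTR1 sequence at chr3:149658026-149658275 on the minus strand, before 1 of the start sites of that gene.
YAP1: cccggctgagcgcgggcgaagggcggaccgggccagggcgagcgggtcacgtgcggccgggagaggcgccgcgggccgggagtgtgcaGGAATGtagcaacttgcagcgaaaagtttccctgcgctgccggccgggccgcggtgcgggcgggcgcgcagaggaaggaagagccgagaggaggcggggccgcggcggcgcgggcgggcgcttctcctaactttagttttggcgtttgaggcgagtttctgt
WWTR1: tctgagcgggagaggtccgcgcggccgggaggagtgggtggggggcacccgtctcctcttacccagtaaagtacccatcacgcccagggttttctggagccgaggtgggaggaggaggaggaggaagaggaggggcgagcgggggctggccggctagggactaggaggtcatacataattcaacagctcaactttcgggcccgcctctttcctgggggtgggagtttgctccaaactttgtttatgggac
The YAP1 sequence held 72% G and C bases and the WWTR1 sequence 62%. Another WWTR1 start site had 35.2% in the same window.

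The letters GGAATG, the core that TEAD factors bind, were searched on both strands (the reverse strand reads CATTCC). They occurred in 2 of the 15 windows, those of YAP1 and LATS2, and in 14.0% of all 35116 promoter windows of the same length. The pattern TGANTCA, a loose form of the AP-1 site in which N is any base, reads the same on both strands. It did not overlap a TEAD core in these windows. It was present in 1 window, that of LATS1, against 7.71% of all windows, and the LATS1 match has A at N. The matches are shown in capitals within 30 bases, to show where the letters of these elements stand at the genes described.
YAP1, chr11:102110273-102110302, plus strand: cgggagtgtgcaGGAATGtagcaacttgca
LATS2, chr13:21061560-21061589, minus strand: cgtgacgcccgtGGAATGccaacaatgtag
LATS1, chr6:149718322-149718351, minus strand: aggatTGAATCAaccaagtaggctgggcgg
The YAP1 match stood 162 bases before the start site, the LATS2 match 9 bases after it and the LATS1 match 245 bases before it. These matches are letters in a window and say nothing about binding in LX-2 cells.

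Of the 10 genes, 7 were lower in OGTi, 1 was higher and 2 did not pass the test (q of 0.05 or lower, DESeq2 with replicate as a block). The lower genes were YAP1, the 4 TEAD genes, VGLL3 and LATS2, and the higher one was WWTR1. Over all 14028 genes with a q value, 24.0% were called lower, 22.7% higher and 46.6% in either direction. The median log2 fold change of the 10 genes was -0.52 and that of the 4 TEAD genes -0.54, beside 0.00 over all genes tested. Control and OGTi libraries did not overlap for 6 genes, all lower, where 20.2% of all genes were lower without overlap, 19.8% higher and 40.0% either. Values below are normalized counts, meaning counts divided by the size factor of the library.

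**Figure D1:**
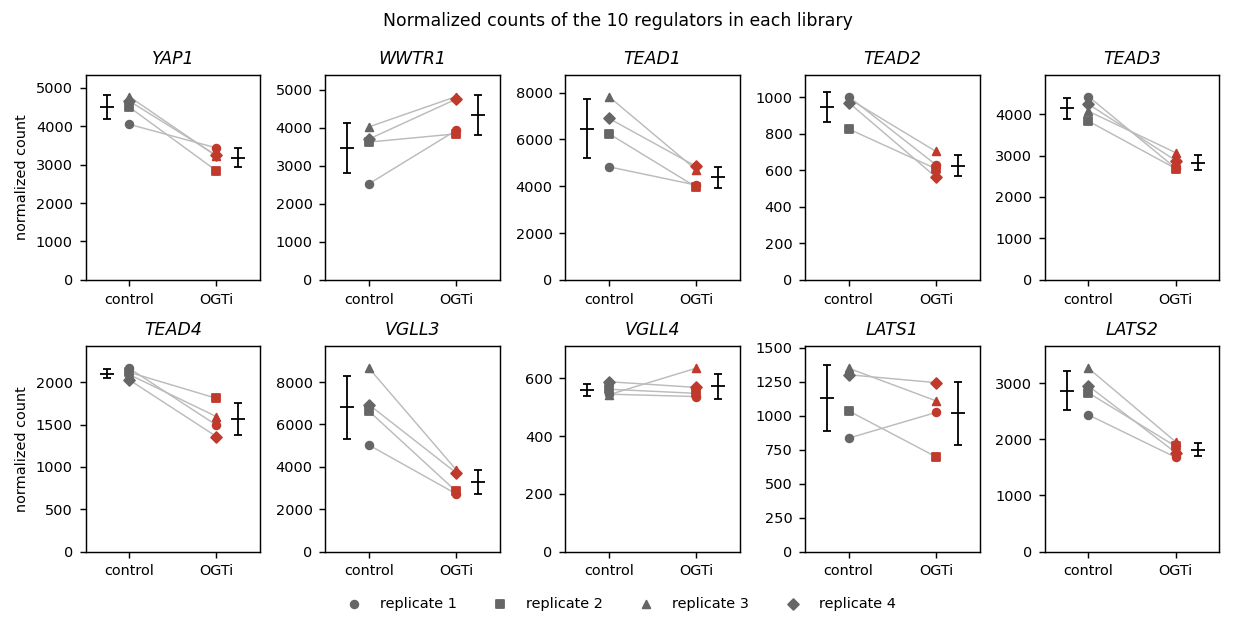
Normalized counts (vertical axis) of the 10 genes in the 4 control and 4 OGTi libraries, with 1 panel per gene, grey (control) and red (OGTi) symbols for libraries, lines joining libraries of the same replicate number and black bars for the mean and SD of each group. The lines of VGLL3 fall in all 4 pairs to below the control range, those of WWTR1 rise in all 4 pairs, and the control and OGTi values of VGLL4 and LATS1 overlap.

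YAP1 and WWTR1, the paralogous coactivators that lack a DNA-binding domain of their own, changed in opposite directions. YAP1 (chromosome 11, 102110447 to 102233424, plus strand, GRCh38) had 4052, 4503, 4775 and 4661 normalized counts in control replicates 1 to 4 and 3436, 2841, 3221 and 3245 in the OGTi libraries. Every OGTi library lay below every control library, and the gap was narrowest in replicate 1. The YAP1 log2 fold change was -0.50 ± 0.08 (SE, q = 1.63e-08), with pairs from -0.66 to -0.24.

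WWTR1 (chromosome 3, 149517235 to 149736714, minus strand) had 2526, 3622, 4022 and 3703 normalized counts in control and 3931, 3839, 4819 and 4752 in OGTi libraries. It was higher in each OGTi library than in the control of the same number, yet the groups overlapped, because control replicate 3 was above OGTi replicates 1 and 2. The log2 fold change was 0.34 ± 0.09 (SE, q = 0.000670, 95% interval 0.16 to 0.51), and the pairs ranged from 0.08 to 0.64. Control replicate 1, the lowest of the 8, carried part of the difference: without replicate 1 the value was 0.24 (q = 0.0157). Without the replicate block the value was 0.32 in both tools, with q = 0.0413 in DESeq2 and q = 0.0553 in edgeR, so the call was lost in the latter. With the block edgeR gave q = 0.00179. WWTR1 had fractional counts in 4 libraries and LATS1 in 2, from reads that RSEM shared with other loci, and the other 8 genes had none.

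The 4 TEAD genes encode the transcription factors through which YAP and TAZ reach DNA, and all 4 fell to a similar degree. TEAD1 (chromosome 11, 12674421 to 12944737, plus strand) had 4833, 6249.9, 7835 and 6904 normalized counts in control and 4051, 3969.6, 4703 and 4851 in OGTi libraries. Only control replicate 1 lay within the OGTi range, below OGTi replicate 4. The TEAD1 log2 fold change was -0.54 ± 0.08 (SE, q = 1.88e-09).

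TEAD2 (chromosome 19, 49340595 to 49362457, minus strand) was the lowest of the 4, with 1004, 827, 993 and 971 normalized counts in control and 631, 609, 704 and 563 in OGTi libraries. The groups were separate, and the log2 fold change was -0.60 ± 0.11 (SE, q = 1.01e-07). TEAD2 overlaps DKKL1 on the opposite strand, and counting used strand.

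TEAD3 (chromosome 6, 35473597 to 35497079, minus strand) had 4425, 3831, 4070.4 and 4239 normalized counts in control and 2693, 2684, 3068 and 2879.9 in OGTi libraries. The highest OGTi library lay well below the lowest control library, and the log2 fold change was -0.55 ± 0.08 (SE, q = 1.13e-11). TEAD4 (chromosome 12, 2959330 to 3040676, plus strand) had 2167, 2119, 2093 and 2030.2 normalized counts in control and 1494, 1811, 1595 and 1359 in OGTi libraries. Its control libraries lay close together, with a coefficient of variation of 2.71% against 12.2% in OGTi, and the groups did not overlap. The TEAD4 log2 fold change was -0.43 ± 0.09 (SE, q = 4.65e-06). The intervals of the 4 log2 fold changes overlapped, from -0.81 to -0.39 for TEAD2 to -0.61 to -0.26 for TEAD4.

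VGLL3, a TEAD-binding cofactor, had the largest fold change of the 10 genes. VGLL3 (chromosome 3, 86876388 to 86991149, minus strand) had 5024, 6626, 8651 and 6932 normalized counts in control and 2721, 2839.6, 3857 and 3710.3 in OGTi libraries. The highest OGTi library stayed below the lowest control library, although the controls themselves ranged widely. The log2 fold change was -1.04 ± 0.08 (SE, q = 8.55e-37, 95% interval -1.20 to -0.89), which left 0.485 of the control level, and pairs ran from -1.22 to -0.88.

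VGLL4, the family member that competes with YAP for TEADs, did not pass the test. VGLL4 (chromosome 3, 11556069 to 11771350, minus strand) had 546, 563, 544 and 589 normalized counts in control and 537, 548, 635 and 569 in OGTi libraries. The groups overlapped, and only in replicate 3 was the OGTi library the higher. The VGLL4 log2 fold change was 0.03 ± 0.11 (SE, q = 0.865), with a 95% interval from -0.19 to 0.25. ATG7 overlaps VGLL4 on the opposite strand.

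VGLL2, the other family member in the files and no member of the set of 10, was also lower. Its normalized counts were 1361, 1849.7, 1212 and 1136 in control and 332, 585, 485.5 and 419.7 in OGTi libraries, so the groups were far apart. The VGLL2 log2 fold change was -1.61 ± 0.12 (SE, q = 7.21e-39).

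LATS2 and LATS1 encode the kinases that phosphorylate YAP and TAZ, and of the pair only LATS2 passed the test. LATS2 (chromosome 13, 20973036 to 21061586, minus strand) had 2437, 2830.4, 3269 and 2952 normalized counts in control and 1679, 1875, 1955 and 1764 in OGTi libraries. Its groups did not overlap, and its log2 fold change was -0.65 ± 0.08 (SE, q = 1.63e-15), with pairs from -0.74 to -0.54.

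LATS1 (chromosome 6, 149658153 to 149718105, minus strand) had 834, 1034, 1348 and 1300.1 normalized counts in control and 1023, 697, 1108 and 1242 in OGTi libraries. The OGTi library was lower in replicates 2 to 4 and higher in replicate 1, and the groups overlapped. The LATS1 log2 fold change was -0.15 ± 0.12 (SE, q = 0.316), with a 95% interval of -0.40 to 0.09. Single replicates moved it: without replicate 1 it was -0.30 (q = 0.0341), and without replicate 2 it was -0.02 (q = 0.933).

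**Figure D2:**
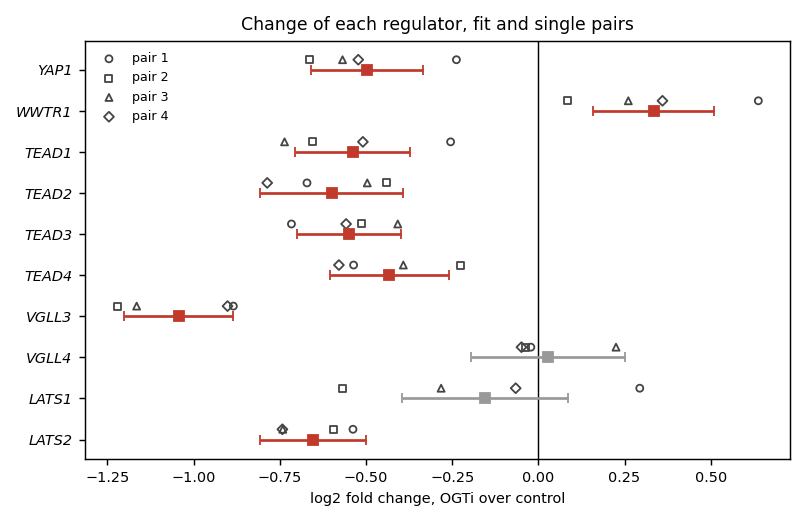
Log2 fold change of OGTi over control (horizontal axis) for the 10 genes as a square with its 95% interval, red where q was 0.05 or lower and grey otherwise, and the 4 within-replicate differences as open symbols above it. VGLL3 stands farthest to the left at -1.04, the TEAD genes, YAP1 and LATS2 lie between -0.65 and -0.43, VGLL4 and LATS1 have intervals that include 0, and WWTR1 lies to the right at 0.34.

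Levels between genes were compared as normalized counts per kb of the canonical transcript. Which transcripts the cells used was not measured, so the order below rests on these lengths. In undivided counts VGLL3 (mean 6808) and TEAD1 (6456) were highest in control, and TEAD4 (2102) was below YAP1 (4497). In control cells TEAD3 had the highest level, 1387 ± 84.6 per kb (SD, n = 4), followed by TEAD4 at 1229 ± 33.3 and YAP1 at 833 ± 58.8. The range of libraries separated TEAD3 from TEAD4 and TEAD4 from YAP1. Below YAP1 came WWTR1 (689 ± 129), TEAD1 (686 ± 134), VGLL3 (652 ± 142), LATS2 (518 ± 62.0) and TEAD2 (436 ± 38.0), and each overlapped its neighbour in this order. LATS1 (153 ± 32.6) and VGLL4 (148 ± 5.53) stood below TEAD2 and overlapped each other. Among 14104 genes, these control levels ranked from percentile 90.1 for TEAD3 down to percentile 46.8 for VGLL4.

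Under OGTi the levels of WWTR1 and YAP1 changed places. TEAD3 (948 ± 60.9 per kb, SD, n = 4) and TEAD4 (915 ± 111) stayed first and overlapped, and WWTR1 came next at 861 ± 104, above YAP1 at 589.8 ± 46.2 without overlap. TEAD1 followed at 467 ± 47.6, LATS2 at 328 ± 22.0, VGLL3 at 314 ± 56.0 and TEAD2 at 288 ± 27.0. VGLL4 (152 ± 11.6) and LATS1 (138 ± 31.5) remained the lowest. The summed level of the TEAD genes was 3738 ± 130.4 per kb in control and 2618 ± 130.4 in OGTi libraries, a difference of -30.0%. For YAP1 and WWTR1 together the sum was 1521 ± 188 in control and 1451 ± 125 in OGTi libraries, a difference of -4.65% within the spread of the libraries.

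The balance between paralogs was measured as a ratio within each library, which does not depend on its size factor. Such a ratio can still differ between libraries of the same group. For TEAD1 (9.42 kb) over TEAD4 (1.71 kb) the log2 ratio was 1.16 in control replicate 1 and 1.90 in control replicate 3. Whether transcript length has a part in this was not tested. The ratio of YAP1 to WWTR1 per kb was 1.496, 1.16, 1.11 and 1.17 in control and 0.815, 0.690, 0.623 and 0.637 in OGTi libraries. It was above 1 in every control library and below 1 in every OGTi library. On the log2 scale of normalized counts the ratio was 0.39 ± 0.20 in control and -0.44 ± 0.18 in OGTi (SD, n = 4), a difference of -0.83, and the 4 pairs ranged from -0.88 to -0.75. The two-sided exact permutation test gave p = 0.0286, the smallest that 4 against 4 libraries allow, and an adjusted p of 0.114 over the 8 balance measures.

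The log2 ratio of VGLL3 to VGLL4 was 3.58 ± 0.32 in control and 2.50 ± 0.18 in OGTi libraries, without overlap, and the exact test again gave its smallest p of 0.0286 (adjusted 0.114). For LATS2 over LATS1 the log2 ratio was 1.37 ± 0.16 in control and 0.87 ± 0.40 in OGTi libraries (exact p = 0.0857, adjusted 0.229). It was lower in all 4 pairs, by as little as -0.02 in 1 of them, and the groups overlapped. None of the 8 measures passed the adjusted test. The YAP1/WWTR1 and VGLL3/VGLL4 ratios already had the smallest p possible, which the adjustment turned into 0.114. Given the p-values of the other measures, the adjusted test could not have called them at any distance between the groups. It therefore cannot decide on these ratios.

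The make-up of the TEAD pool showed no difference past the test. TEAD1 made up 18.3% ± 3.25 of the summed TEAD level in control and 17.8% ± 1.88 in OGTi libraries (SD, n = 4, exact permutation p = 0.8), and TEAD2 11.7% ± 0.727 and 11.0% ± 0.733 (exact p = 0.171). TEAD3 held 37.1% ± 2.03 and 36.2% ± 1.80 (exact p = 0.6). TEAD4 held 32.9% ± 1.72 and 34.9% ± 3.59 (exact p = 0.429), and was higher in all 4 pairs. The size of each share rests on the canonical lengths: in undivided counts the control mean was 6456 for TEAD1 and 2102 for TEAD4. Without length correction the differences in share were -0.39, -0.32, -0.47 and 1.18 percentage points for TEAD1 to TEAD4 (exact permutation p of 0.514 or higher). The log2 ratio of TEAD1 to TEAD4 was 1.60 ± 0.33 in control and 1.49 ± 0.29 in OGTi libraries (exact p = 0.6).

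**Figure D3:**
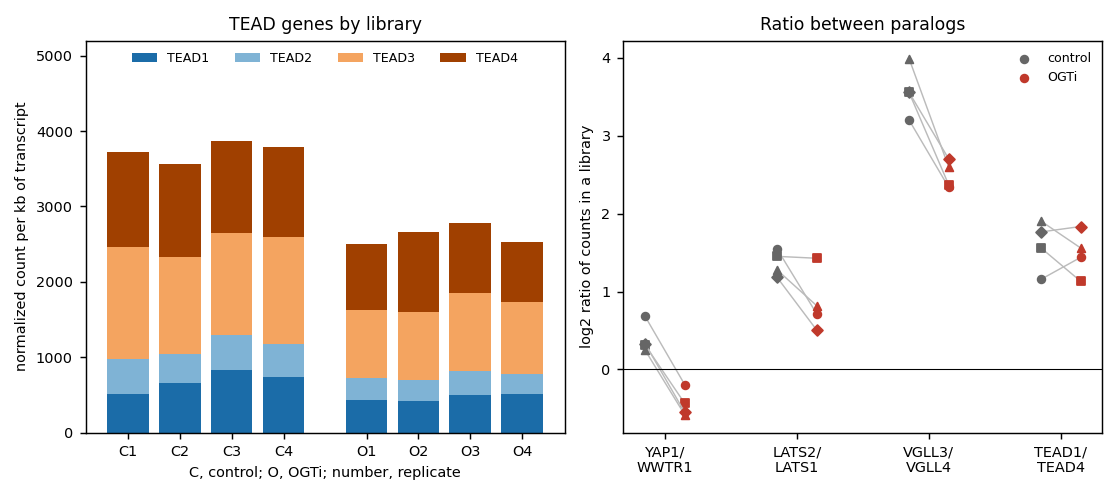
Left, stacked bars of the normalized count per kb of transcript for TEAD1 to TEAD4 in each of the 8 libraries (C, control, and O, OGTi, with the replicate number). Right, the log2 ratio of counts of 4 paralog pairs in each library, grey for control and red for OGTi, with lines joining libraries of the same replicate. The bars are shorter in every OGTi library with similar proportions, YAP1/WWTR1 goes from above 0 in every control library to below 0 in every OGTi library, VGLL3/VGLL4 is lower without overlap, and the other 2 ratios overlap.

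The other genes of the pathway were grouped by role, in lists that were also chosen with earlier results of these data known. Of 76 listed genes 75 were in the files and tested, of which 35 were lower (46.7%), 6 higher (8.0%) and 34 not called. Over all genes 24.0% were called lower, 22.7% higher and 46.6% in either direction. The median log2 fold change of the 75 genes was -0.17, beside 0.00 over all genes tested. Of the 7 genes of the kinase core, 3 were lower (42.9%, against 24.0% of all genes) and 1 was higher. The 57.1% called in either direction are near the 46.6% of all genes. SAV1, the scaffold of the MST kinases, had 2169, 2311, 2453.5 and 2024 normalized counts in control and 1483, 1749.8, 1704 and 1601 in OGTi libraries, with a log2 fold change of -0.45 ± 0.08 (SE, q = 1.50e-07). The groups of SAV1 did not overlap. STK38 and STK38L, the paralogous NDR kinases related to LATS, had log2 fold changes of -0.23 ± 0.09 (q = 0.0212) and 0.47 ± 0.11 (q = 4.89e-05). STK3 and STK4, which encode MST2 and MST1, had values of -0.02 (q = 0.929) and -0.01 (q = 0.911).

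Of the 23 upstream inputs, 10 were lower (43.5%, against 24.0% of all genes) and 2 higher, with a median of -0.15. The 52.2% called in either direction are near the 46.6% of all genes. FRMD6, a FERM-domain protein of the cell cortex, had 8966, 9604.5, 11944.5 and 10667 normalized counts in control and 5466, 5252, 6028 and 5978 in OGTi libraries. It was lower in every OGTi library than in any control library, at a log2 fold change of -0.85 ± 0.07 (SE, q = 2.64e-32). WWC1, which encodes the scaffold KIBRA, fell by 0.74 on the log2 scale (q = 3.59e-14), and the kinase gene MINK1 rose by 0.20 (q = 0.00790). NF2, which encodes merlin and was picked after its values were seen, fell by 0.67 (q = 4.69e-19).

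Of the 7 LATS inhibitors, 4 were lower (57.1%, against 24.0% of all genes), none was higher, and the median was -0.37. The same 57.1% called in either direction are near the 46.6% of all genes. AJUBA and WTIP encode LIM-domain proteins that bind LATS kinases and hold them back. AJUBA had 11385.5, 11094, 11147 and 9895 normalized counts in control and 3533, 5171, 5538 and 4656 in OGTi libraries, a log2 fold change of -1.22 ± 0.10 (SE, q = 1.55e-33). WTIP had 387, 507, 414 and 457 in control and 87.7, 127, 154 and 100.2 in OGTi libraries, a log2 fold change of -1.93 ± 0.17 (SE, q = 6.65e-28). Neither gene had overlapping groups. The other 2 lower genes, named after their values were seen, were the focal adhesion genes ZYX (-0.88, q = 3.71e-37) and TRIP6 (-0.37, q = 4.54e-05).

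The STRIPAK complex is a phosphatase assembly that removes phosphate from MST kinases. Of its 12 genes, 4 were lower (33.3%, against 24.0% of all genes) and 2 higher, with a median of -0.06. The 50.0% called are near the 46.6% of all genes. STRIP2, a scaffold subunit, rose from 1166, 1149, 1128.5 and 1405 normalized counts in control to 2799, 2358.5, 2528 and 2663.5 in OGTi libraries, a log2 fold change of 1.10 ± 0.09 (SE, q = 5.45e-35). The phosphatase scaffold PPP2R1A fell by 0.53 (q = 3.39e-14) and STRN4, a striatin, by 0.36 (q = 6.53e-06).

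Of the 14 genes whose products retain YAP and TAZ outside the nucleus, 9 were lower (64.3%, against 24.0% of all genes) and 1 was higher, with a median of -0.32. Called in either direction were 71.4%, against 46.6% of all genes. AMOT, an angiomotin that binds YAP, had 750, 813, 958 and 786 normalized counts in control and 526, 474, 509.5 and 518 in OGTi libraries, a log2 fold change of -0.70 ± 0.11 (SE, q = 4.55e-09). Its relative AMOTL2 had 10222, 12315, 14631 and 13656 in control and 5976, 8102, 9413 and 8474.5 in OGTi libraries, a log2 fold change of -0.68 ± 0.07 (SE, q = 9.43e-24). The groups of AMOT and of AMOTL2 did not overlap. The third angiomotin gene, AMOTL1, named after its values were seen, did not pass the test (-0.16 ± 0.19, SE, q = 0.539), and its groups overlapped. The 14-3-3 genes YWHAB, YWHAE, YWHAZ, YWHAH and YWHAQ, named after their values were seen, were lower by -0.67 to -0.35, and YWHAG had a value of 0.04 (q = 0.642). The remaining 14-3-3 gene, SFN, had 0 to 10.3 normalized counts in control and 7.03 to 14.02 in OGTi libraries and did not pass the test (q = 0.273).

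Of the 11 genes for turnover of YAP and TAZ, 4 were lower (36.4%, against 24.0% of all genes) and none higher, with a median of -0.12. The list joins genes for degradation with genes for removal of ubiquitin, so this count and median have no single direction. The latter, USP9X, OTUB2 and USP10, named after their values were seen, did not pass the test (q = 0.244, 0.672 and 0.188). The 36.4% called lie below the 46.6% of all genes called in either direction. RBX1, the RING subunit of cullin ligases, fell by 0.79 (q = 1.50e-07), and FBXW11, an F-box protein that recognises phosphorylated substrates, by 0.31 (q = 0.000277).

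**Figure D4:**
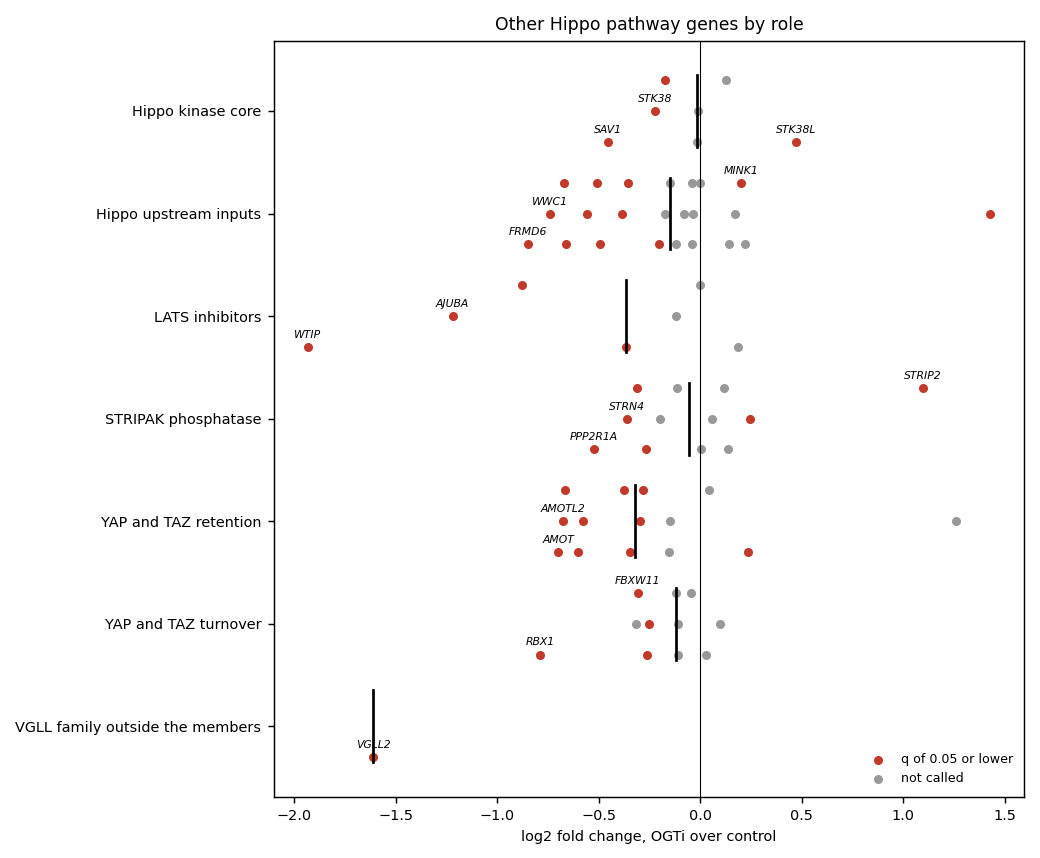
Log2 fold change of OGTi over control (horizontal axis) for 75 other Hippo pathway genes in rows by role, red for genes with q of 0.05 or lower, grey for the rest, and a black bar at each median. Genes named in the text by rule are labelled, with WTIP at -1.93 farthest to the left and STRIP2 at 1.10 among the genes to the right. Points within a role are spread vertically only to keep them apart.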

How the data were processed

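Poly(A) RNA of 4 control and 4 OGTi LX-2 libraries was sequenced. The authors aligned reads to hg38 with Bowtie2 2.3.5.1 and counted them per gene symbol with RSEM 1.3.1. The deposited values are expected counts, estimated counts not scaled for depth, in which 12.9% to 16.3% of genes had a fraction, so reads shared between loci can shift a gene's value. The authors' table of DESeq2 1.36.0 fold changes and p-values was not used.

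Counts were rounded and genes with a total under 10 removed, leaving 14895 for the Wald test of DESeq2 1.42.0 (R 4.3.3) with median-of-ratios size factors and the replicate number as a block, after the study's methods. Genes with a Benjamini-Hochberg q of 0.05 or lower were called. Deviations from the group mean correlated between libraries of the same number (r = 0.372, 0.391, 0.165 and 0.327 over 10994 genes). Some libraries of different numbers did so too (0.343 for control 3 with OGTi 4, 0.255 for control 4 with OGTi 3), so the order of replicates 3 and 4 rests on the labels. Paralog balance used two-sided exact permutation tests, and per-kb levels used GENCODE v44 transcripts on GRCh38. The script was tested on simulated data. Alternatives covered edgeR 4.0.16, no block, TMM, filters and left-out replicates. All 10 genes were named, and from each pathway list the 2 called genes that rose most and the 2 that fell most, at 100 normalized counts or more on average, except 2 genes that are not reported here. The 10 genes and the lists were chosen with earlier results of these data known.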

Additional observations from a re-analysis of the deposited data

How the results depend on the processing

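Over 10 alternative settings, the 10 genes gave 100 log2 fold changes, of which 97 kept their direction and their side of the threshold. WWTR1 lost its call in 1 fit: with edgeR and no replicate block it was 0.32 (q = 0.0553), so 0 of the 10 genes were called higher in that fit, while DESeq2 without the block gave 0.32 (q = 0.0413). For the paralog balance, the sign-flip test within replicate pairs cannot go below an exact p of 0.125, and none of the 8 measures passed it. The full fit called 6541 of all genes, 3360 lower and 3181 higher. Leaving out each replicate in turn gave 5127 to 5690 (2670 to 2967 lower, 2416 to 2723 higher), fewer each time. Of the 10 genes 8 to 9 were then called, against 8 in the full fit. Of the other pathway genes 35 to 38 were called, against 41. With a replicate left out, VGLL4 ranged from -0.0395 to 0.0548, LATS1 from -0.30 to -0.0188 and WWTR1 from 0.24 to 0.42. The balance difference of log2 TEAD1/TEAD4 ranged from -0.23 to 0.00223, that of the TEAD1 share from -1.77 to 0.557 percentage points and that of the TEAD3 share from -1.75 to 0.0475, so these have no settled direction. The lowest count of any of the 10 genes in a library was 473 (VGLL4), and the standard errors were largest for LATS1 (0.12), VGLL4 (0.11) and TEAD2 (0.11), which had the fewest counts.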

Other observations

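Within the control group, 6 of the 10 genes (YAP1, WWTR1, TEAD1, VGLL3, LATS1 and LATS2) had their lowest normalized count in replicate 1 and their highest in replicate 3. TEAD2, TEAD3 and TEAD4 were instead highest in control replicate 1. The size factors of control replicates 1 and 3 were 1.03 and 0.870. The canonical transcripts of the 6 genes ranged from 5.04 kb (WWTR1) to 10.4 kb (VGLL3). Those of TEAD2, TEAD3, TEAD4 and VGLL4 were shorter, from 1.71 kb (TEAD4) to 3.775 kb (VGLL4). Whether transcript length has a part in these differences between libraries was not tested. In the OGTi group, replicate 3 was the highest library for 6 of the 10 genes and replicate 2 the lowest for 5.

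For 4 of the genes, the genes with the most similar pattern were sought by Pearson correlation of log2(normalized count + 1) over the 8 libraries, among 10994 genes with a mean of at least 100. For YAP1 these were ZEB2 (r = 0.994), DUSP10 (0.993) and HIP1 (0.993). For WWTR1 they were ATR (0.993), VPS41 (0.980) and FNBP4 (0.975). TEAD4 was closest to GPC1 (0.996), MYL6B (0.991) and RPL11 (0.991), and LATS2 to CTNNB1 (0.996), KCNIP3 (0.994) and ZNF551 (0.994). The libraries share the treatment, so these values describe 8 points in 2 groups and carry no p.

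The gene of the inhibited enzyme, OGT, had 5351, 5977, 5655 and 5561 normalized counts in control and 4217, 3534, 4138 and 4695 in OGTi libraries. OGA, whose product removes O-GlcNAc, had 2572, 3242, 3579.7 and 3244 in control and 799, 931, 883 and 1002 in OGTi libraries. Neither gene had overlapping groups. OSMI-1 acts on the enzyme, so the transcript level does not check the treatment.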
